A study of Mus musculus with 7 samples.

Results

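F-box proteins are the exchangeable adaptors of SCF ubiquitin ligases, and their transcripts were compared between wild-type LLC1 cells and LLC1 cells in which the DEAD-box helicase Ddx54 was knocked down. The members were chosen by symbol from the deposited table: every gene named Fbxl, Fbxw or Fbxo with a number, together with Skp2, Ccnf, Btrc, Skp1a and Cul1. This gave 83 of the 24419 genes of the table, of which 17 had no read in any library and 57 had enough reads to be tested. Among the 83 is Fbxl12os, a noncoding gene annotated as antisense that the naming pattern takes in. The rule itself uses symbols, not measured values, but the family was picked with earlier results of these data known.

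LLC1 is a mouse Lewis lung carcinoma line, here grown in culture in medium with serum. Polyadenylated RNA was sequenced in 4 libraries with the genotype label WT DDX54 and 3 labelled DDX54 KD, made with an shRNA. What the wild-type cells received in its place, the sequence of the hairpin and the number of clones are not in the labels. Whether replicates were separate cultures is not said, and each p-value therefore reflects the spread among these libraries, which may be technical.

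In an SCF ligase, the cullin Cul1 is the scaffold, the RING protein Rbx1 at one end recruits the ubiquitin-conjugating enzyme, and Skp1 (symbol Skp1a here) at the other end holds an F-box protein. The F-box protein binds the substrate, through WD repeats in the Fbxw family, leucine-rich repeats in the Fbxl family and other domains in the Fbxo family. Attachment of NEDD8 to the cullin activates the ligase and the COP9 signalosome removes it. In dividing cells these ligases destroy cyclins, inhibitors of cyclin-dependent kinases and signalling proteins. Transcripts were measured here, not proteins or ligase activity.

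The libraries held 14987324 to 18673395 counts. Levels are given as CPM, counts scaled to library size with TMM factors, and as CPM per kb of annotated exon where genes are compared with each other. Ddx54 was at 78.6 to 83.2 CPM in wild-type and at 39.2 to 45.9 CPM in knockdown, so no library went against its label (log2 fold change -0.90, SE 0.096, edgeR adjusted p = 6.55e-09). Leukocyte markers summed to at most 1.12 CPM in any library and endothelial markers to at most 0.784 CPM. The epithelial keratin gene Krt18 was at 217.5 ± 4.77 CPM in the wild-type libraries (SD, n = 4) and became 131.7 ± 4.02 CPM in knockdown (SD, n = 3). Epithelial markers summed to 238.7 to 248.9 CPM in wild-type and 148.8 to 168.0 CPM in knockdown, most of it Krt18. Of 3 tested epithelial markers 2 were lower and 1 did not pass, at a log2 fold change of 0.22. The part of the Krt18 fall in the results below was not tested. The lung lineage factor Nkx2-1 had no count and Epcam was near 0. Fibroblast markers summed to 1045 to 1235 CPM in wild-type cells against 1059 to 1126 CPM in knockdown, nearly all of it Col3a1, while Thy1 had no count. Of 24 proliferation markers 20 were higher in knockdown and 0 were lower, beside 14.1% and 15.3% of all tested genes. The summed level of these markers was 4490 to 4822 CPM in wild-type cells against 6032 to 6232 CPM in knockdown. The precursor of ribosomal RNA, Rn45s, took 10.7 to 12.5% of counts in wild-type and 7.96 to 9.07% in knockdown.

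The promoters of 3 called cell cycle members are shown first, as examples picked after their values and matches were seen: Skp2 and Ccnf, which were higher in knockdown, and Fbxl12, which was lower. Fbxw7, a further higher cell cycle member, had no match to any motif searched in its 3 RefSeq windows, nor had the second window of Skp2 or of Fbxl12. The sequences are from RefSeq on GRCm38.p6 and lie on the minus strand, read 5′ to 3′ towards the gene. Capitals mark matches to the CHR element, TTTGAA, and the CCAAT box, CCAAT, on either strand. CHR elements and CCAAT boxes are known from promoters of genes expressed late in the cell cycle. The stretches printed are chr15:9155426-9155625 for Skp2, chr17:24251485-24251659 for Ccnf and chr9:20644768-20644967 for Fbxl12. They are parts of the RefSeq windows searched, from -200 to -1 for Skp2 and Fbxl12 and from -250 to -76 for Ccnf.
Skp2: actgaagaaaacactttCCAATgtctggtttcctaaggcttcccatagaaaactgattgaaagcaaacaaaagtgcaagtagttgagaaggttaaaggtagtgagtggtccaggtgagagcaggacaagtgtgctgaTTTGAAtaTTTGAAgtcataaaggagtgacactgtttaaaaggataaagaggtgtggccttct
Ccnf: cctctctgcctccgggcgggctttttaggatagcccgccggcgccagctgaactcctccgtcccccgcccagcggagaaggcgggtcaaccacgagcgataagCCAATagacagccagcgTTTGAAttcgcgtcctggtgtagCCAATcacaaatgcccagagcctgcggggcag
Fbxl12: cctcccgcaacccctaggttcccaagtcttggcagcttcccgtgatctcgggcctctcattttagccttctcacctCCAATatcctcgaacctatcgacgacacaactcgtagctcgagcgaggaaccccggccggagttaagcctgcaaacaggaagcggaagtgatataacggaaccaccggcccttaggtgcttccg

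Of the 57 tested members, 10 were higher and 9 were lower in knockdown at an adjusted p under 0.05 (edgeR quasi-likelihood test), and 38 did not pass. Fbxo48 is among the 10, and it passed the low-count filter only through the knockdown libraries. Over all 11594 tested genes, 14.1% were called higher and 15.3% lower, so the shares among the members, 17.5% and 15.8%, lie near the background. Wild-type and knockdown ranges were separate for 21 of the 57 members, beside 35.1% of all tested genes. The median log2 fold change was 0.01 over the members and 0.001 over all genes. The median absolute change was 0.25 over the members and 0.27 over all genes. Calls in the family went both ways, and what follows describes single members. In bulk RNA, fewer cells in a given phase and less RNA per cell cannot be told apart.

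**Figure D1:**
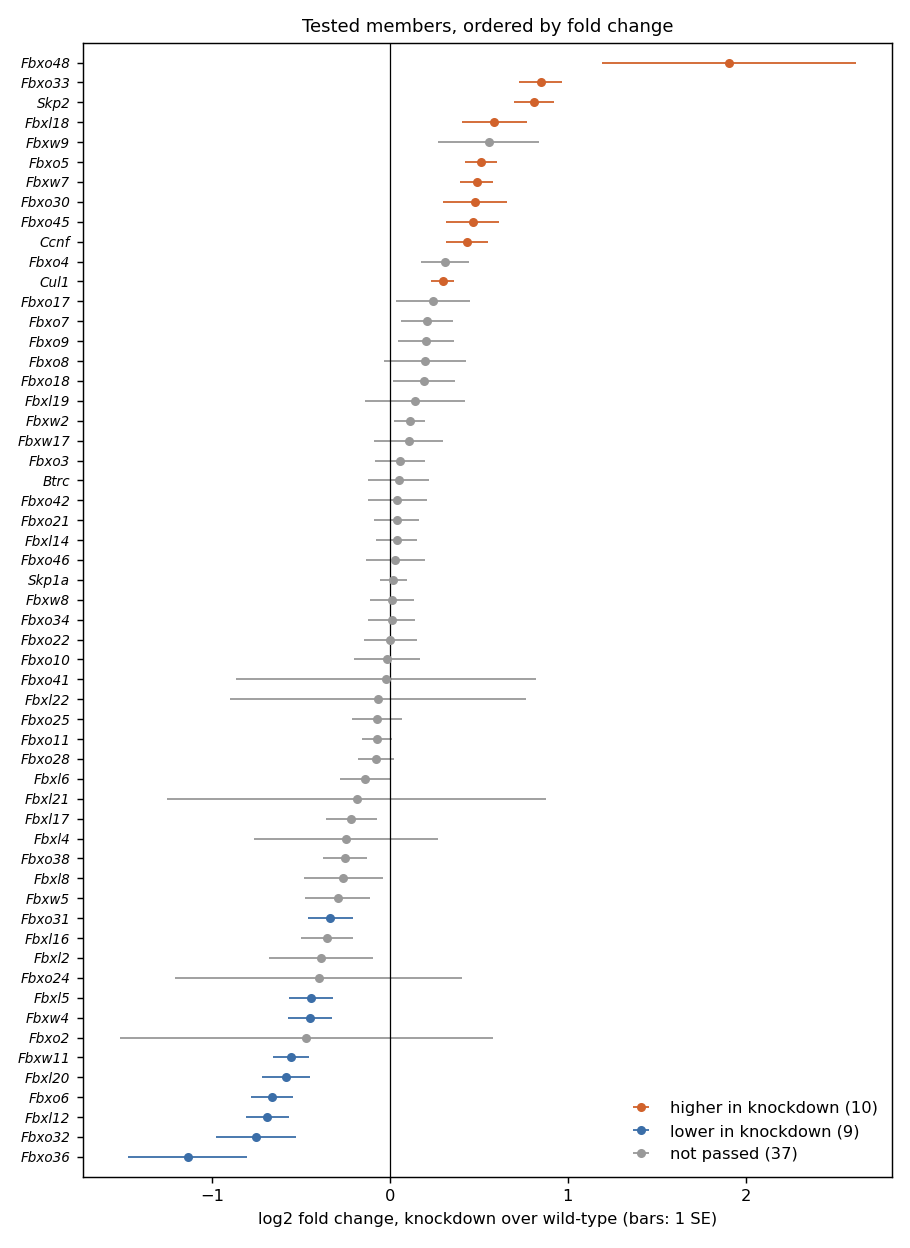
Log2 fold change of the tested members, 1 left out, knockdown over wild-type, with bars of 1 SE, ordered by size. The 10 called higher (orange) and the 9 called lower (blue) lie towards the ends, with members that did not pass (grey) among them, and the wide bars belong to genes with few reads such as Fbxo48 and Fbxo2.

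Of the 2 core genes, Cul1 rose and Skp1a did not pass. Cul1, the scaffold (chromosome 6 at 47453398 to 47526139, plus strand, GRCm38), was at 219.2, 232.5, 233.1 and 222.4 CPM in wild-type and at 272.1, 281.7 and 280.8 CPM in knockdown. All 3 knockdown libraries lay above all 4 wild-type libraries. The rise was 0.29 log2 units (SE 0.063, adjusted p = 0.000467, edgeR), to 122.7% of wild-type. Skp1a, the adaptor that holds the F-box, was at 118.0, 125.2, 113.4 and 118.1 CPM in wild-type and at 108.2, 124.1 and 128.4 CPM in knockdown. These ranges overlap, and the change of 0.02 log2 units (SE 0.078, adjusted p = 0.893) was within the spread. The log2 ratio of Cul1 to Skp1a counts was 0.93 ± 0.070 in the wild-type libraries (SD, n = 4) and became 1.21 ± 0.10 in knockdown (SD, n = 3). That ratio rose by 0.28 (two-sided exact permutation test, 35 possible splits, p = 0.0286, adjusted over 4 ratios 0.0381), with no overlap of the groups. The smallest p this design allows is 0.0286.

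Per kb of exon, Cul1 and Skp1a were the most abundant members, at means of 61.6 and 54.0 CPM per kb over all 7 libraries. The next were Fbxo5 at 36.2, Fbxo11 at 19.8 and Fbxo6 at 17.4 CPM per kb. Fbxo11, an adaptor known for the repressor Bcl6, did not pass (log2 fold change -0.07, SE 0.084, adjusted p = 0.573). Btrc, one of the best known adaptors, stood far down this order at 0.944 CPM per kb, although its annotated exons sum to 16908 bp, and a long annotated untranslated part lowers a value per length.

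**Figure D2:**
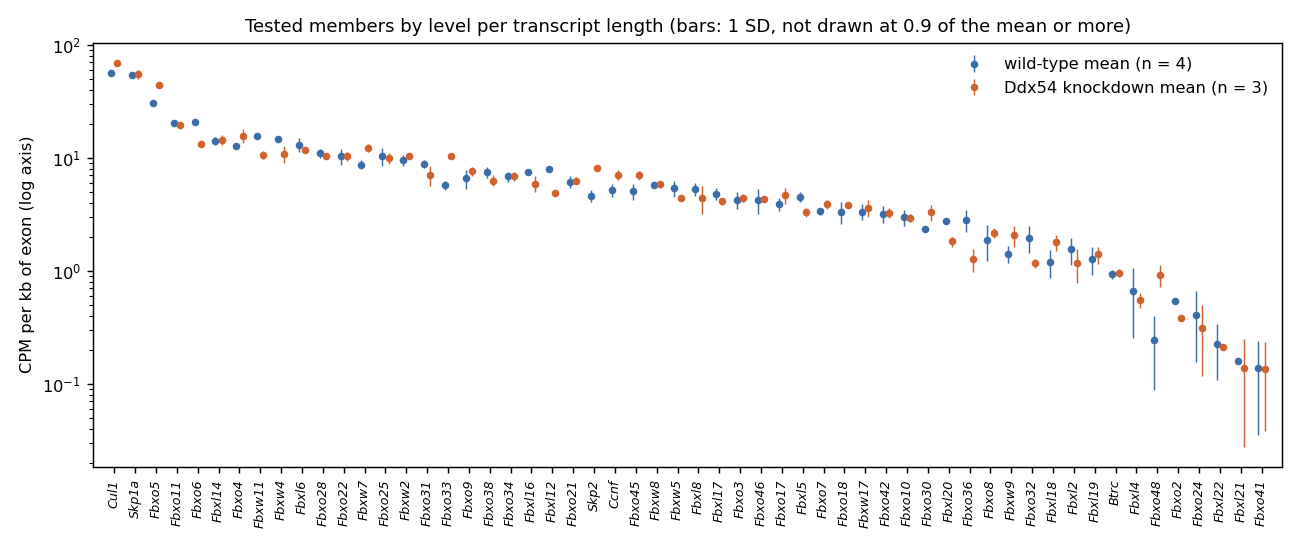
Level of the tested members, 1 left out, in CPM per kb of exon on a log axis, ordered by the mean of all 7 libraries, with group means as points. Cul1 and Skp1a lead, Fbxo5 is the F-box gene with the highest level per length, and Fbxo41 is the lowest at 0.137 CPM per kb.

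Calls among adaptors of the cell cycle went both ways. Of 9 tested members known for cyclins, kinase inhibitors or mitotic regulators, 4 were higher and 2 were lower. Those called were 66.7% of these few genes, beside 29.4% of all tested genes. Skp2 (chromosome 15 at 9111985 to 9155425, minus strand), which targets the kinase inhibitor Cdkn1b, was at 40.7, 32.0, 39.2 and 33.2 CPM in wild-type. In knockdown it was at 60.3, 62.1 and 68.3 CPM, every library above every wild-type library. In log2 units the change was 0.81 (SE 0.11, adjusted p = 8.22e-07, edgeR). The Cdkn1b transcript itself, named after its value was known, did not pass (-0.05, SE 0.081, adjusted p = 0.688). Cks1b, the cofactor that Skp2 needs for Cdkn1b, rose less, from 430.1 ± 18.2 to 508.8 ± 19.7 CPM (0.24, SE 0.060, adjusted p = 0.00213).

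Ccnf (chromosome 17 at 24222198 to 24251484, minus strand) encodes cyclin F, the founding F-box protein, which limits the ribonucleotide reductase subunit Rrm2. Its level was 39.6, 33.1, 44.8 and 44.5 CPM in wild-type cells against 57.9, 58.2 and 48.1 CPM in knockdown. The groups did not overlap, at 0.43 log2 units (SE 0.12, adjusted p = 0.00479). Transcripts of Rrm2 itself rose from 94.2 ± 10.8 to 211.5 ± 5.34 CPM (1.16, SE 0.078, adjusted p = 3.15e-13).

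Fbxo5 (chromosome 10 at 5799160 to 5805600, minus strand) encodes Emi1, which holds back the anaphase-promoting complex until mitosis. It was at 62.5, 59.0, 65.8 and 57.9 CPM in wild-type and at 87.9, 84.4 and 89.8 CPM in knockdown. Both groups were tight and separate, and the log2 fold change was 0.51 (SE 0.089, adjusted p = 3.18e-05). The log2 ratio of Ccnf to Fbxo5 counts was -0.61 ± 0.19 in the wild-type libraries (SD, n = 4) and became -0.68 ± 0.19 in knockdown (SD, n = 3), and the groups overlapped (exact permutation p = 0.629). Skp2, Ccnf and Fbxo5 thus moved the same way as 20 of the 24 proliferation markers. The part of the proliferation markers in their rise was not tested.

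Fbxw7 (chromosome 3 at 84815268 to 84979198, plus strand) is a tumour suppressor whose ligase destroys cyclin E, Myc and Jun. Its transcript was at 64.9, 53.04, 61.0 and 65.7 CPM in wild-type and at 93.3, 80.4 and 83.5 CPM in knockdown. No wild-type library reached the lowest knockdown library (log2 fold change 0.49, SE 0.095, adjusted p = 0.000148). The log2 ratio of Fbxw7 to Skp2 counts fell from 0.76 ± 0.16 (SD, n = 4) to 0.43 ± 0.18 (SD, n = 3), so Skp2 rose more (exact permutation p = 0.0286, adjusted 0.0381). The groups were barely apart, with wild-type replicate 3 at 0.639 and knockdown replicate 1 at 0.631. Among transcripts of Fbxw7 substrates, the cyclin E genes Ccne1 (0.86, SE 0.12) and Ccne2 (1.10, SE 0.13) were higher. Mcl1 was higher by less (0.24, SE 0.073, adjusted p = 0.0107, and 0.0791 without knockdown replicate 1). Myc (-1.01, SE 0.093) and Jun (-0.22, SE 0.067) were lower. Jun lost its call without knockdown replicate 2 (adjusted p = 0.109), with the replicate block (0.0548) and after GC and length correction (0.0668). Notch1 (-0.03, adjusted p = 0.945), Klf5 (-0.20, adjusted p = 0.164) and Srebf1 (-0.13, adjusted p = 0.459) did not pass, and the sign for Notch1 turned in 4 alternatives. The cyclin E genes were named for being among the called genes with the largest change in a list. The other substrates were named after their values were known, and calls among all these substrates went both ways.

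On the other side, Fbxl12, an adaptor known for the kinase inhibitors Cdkn1a and Cdkn1c, was at 39.5, 41.0, 39.3 and 41.0 CPM in wild-type. It was at 25.3, 23.6 and 25.9 CPM in knockdown, 62.0% of wild-type and far from the nearest wild-type library. In log2 units the change was -0.69 (SE 0.12, adjusted p = 4.53e-05). Fbxl12 lies on chromosome 9 at 20618118 to 20644767 on the minus strand, and 37.13% of its exonic bases are also exon of Ubl5 on the opposite strand. The strand setting of the counting is not stated, so reads of both cannot be told apart there. Ubl5 itself was at 168.0 ± 12.5 CPM in wild-type cells against 168.7 ± 7.35 CPM in knockdown (0.01, adjusted p = 0.968).

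Fbxo31, which targets cyclin D after DNA damage, was at 54.2, 48.1, 44.7 and 45.8 CPM in wild-type and at 40.9, 29.7 and 44.0 CPM in knockdown. The lowest wild-type and the highest knockdown library were 44.7 and 44.0 CPM (log2 fold change -0.34, SE 0.13, adjusted p = 0.0415). This call rested on single libraries. Without knockdown replicate 2 the fold change was -0.18 (adjusted p = 0.352), and it was also lost without wild-type replicate 1 (0.124), 2 (0.0577) or 4 (0.052) and without knockdown replicate 1 (0.0571). After GC and length correction the fold change was -0.25 (adjusted p = 0.135), and with the replicate number as a block the adjusted p was 0.051. Fbxo4, a second adaptor for cyclin D, was at 24.5 to 27.8 CPM in wild-type cells against 29.2 to 37.5 CPM in knockdown and did not pass (0.31, SE 0.13, adjusted p = 0.0847). Fbxl2 (-0.39, adjusted p = 0.347) and Fbxl8 (-0.26, adjusted p = 0.414) did not pass either. Fbxl7 and Fbxo43, the meiotic relative of Fbxo5, were not tested, with 8 and 0 counts in all.

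**Figure D3:**
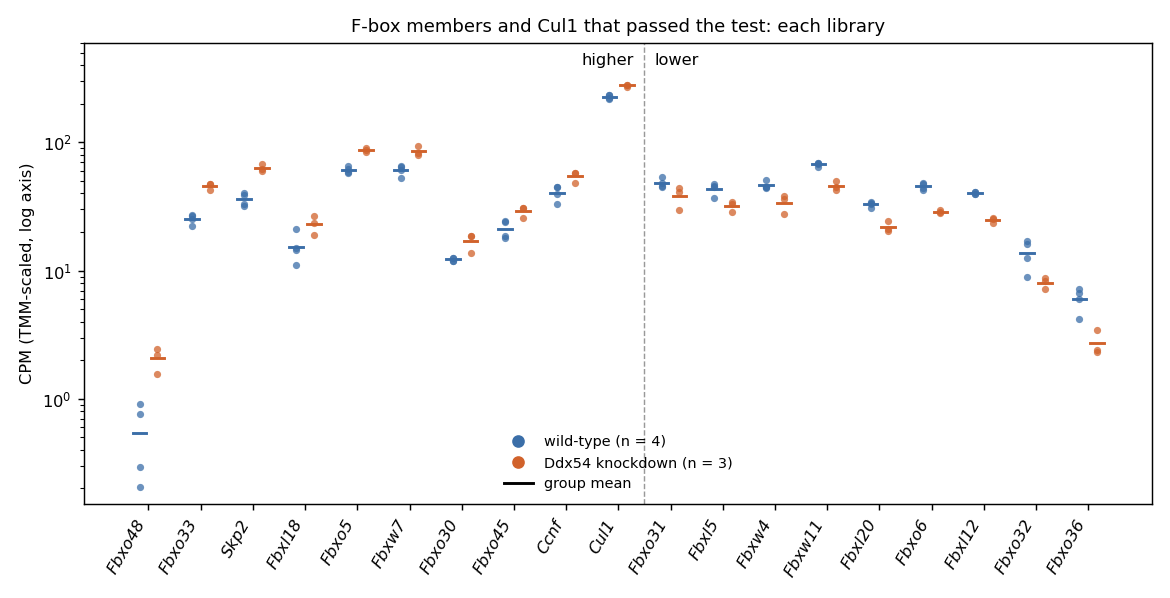
CPM on a log axis in each library for the 19 members that passed, with wild-type in blue, knockdown in orange and group means as lines. Fbxl18 is the member whose groups overlap, and Fbxo48 sits lowest, at 0.204 to 0.915 CPM in wild-type.

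The beta-TrCP paralogs Btrc and Fbxw11 bind the same phosphorylated motif in proteins such as beta-catenin and the NF-kB inhibitor Nfkbia, and their transcripts differed in response. Fbxw11 (chromosome 11 at 32642724 to 32746816, plus strand) was at 68.2, 69.0, 69.1 and 64.3 CPM in wild-type and at 50.2, 42.5 and 45.2 CPM in knockdown. It fell to 68.0% of wild-type without overlap (log2 fold change -0.56, SE 0.10, adjusted p = 5.11e-05). Btrc was at 17.8, 14.5, 14.97 and 15.7 CPM in wild-type and at 14.8, 17.4 and 16.6 CPM in knockdown. These overlap throughout (0.05, SE 0.17, adjusted p = 0.872), and the sign of this small value turned after GC and length correction (-0.08). The difference itself was tested on the log2 ratio of Btrc to Fbxw11 counts, which was -2.11 ± 0.15 in the wild-type libraries (SD, n = 4) and became -1.50 ± 0.24 in knockdown (SD, n = 3). The ratio rose by 0.61 without overlap (exact permutation p = 0.0286, adjusted 0.0381). It uses the same counts as the Fbxw11 call, so it is not separate evidence of the fall of Fbxw11. The balance of the pair thus shifted towards Btrc, which remained the lower of the pair in counts in all 7 libraries.

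**Figure D4:**
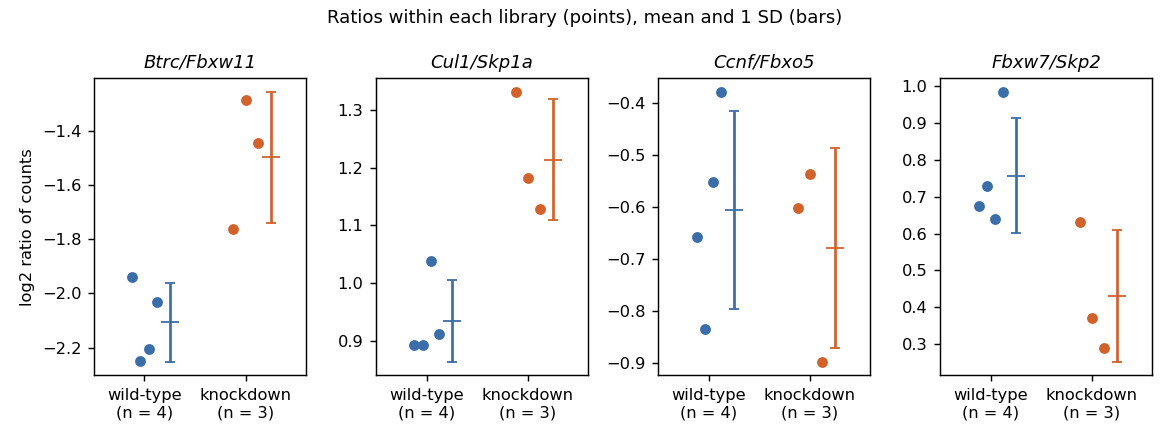
Log2 ratio of counts within each library for 4 pairs of members, with points for libraries and bars for the mean and 1 SD. Btrc to Fbxw11 and Cul1 to Skp1a separate the groups, Fbxw7 to Skp2 does so only barely, and Ccnf to Fbxo5 does not.

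Among 12 tested adaptors of signalling and transcription factors, 2 were higher, 1 (Fbxw11) was lower and 9 did not pass. The called share was 25%, beside 29.4% of all tested genes. Fbxo45, an unusual adaptor that works without Cul1, was at 18.0, 18.5, 24.4 and 23.8 CPM in wild-type and at 30.7, 31.0 and 25.9 CPM in knockdown, without overlap (log2 fold change 0.46, SE 0.15, adjusted p = 0.0164). Fbxl18 was at 11.01, 14.5, 14.97 and 21.0 CPM in wild-type and at 26.7, 19.1 and 23.4 CPM in knockdown (0.59, SE 0.18, adjusted p = 0.0139). Its groups overlapped, with wild-type replicate 4 above knockdown replicate 2. Both calls were lost without wild-type replicate 1 (adjusted p = 0.0534 for Fbxo45 and 0.0563 for Fbxl18) and without knockdown replicate 1 (0.0737 and 0.121). Fbxo45 also lost its call without knockdown replicate 2 (0.0877). Fbxo38, known for the turnover of PD-1 in T cells, was at 36.1 to 47.2 CPM in wild-type cells against 32.9 to 40.2 CPM in knockdown and did not pass (-0.25, SE 0.12, adjusted p = 0.127). Fbxw2, Fbxw8, Fbxl14, Fbxo3, Fbxo10, Fbxo11 and Fbxo42 lay between -0.07 and 0.11.

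Of 12 tested adaptors that sense metabolites or serve organelles and protein quality, 1 was higher, 2 were lower and 9 did not pass. Here too 25% were called, beside 29.4% of all tested genes. Fbxl5, which senses iron and destroys the iron regulatory protein Ireb2, was at 47.4, 44.6, 45.8 and 36.9 CPM in wild-type and at 28.7, 34.4 and 33.1 CPM in knockdown. In log2 units the change was -0.44 (SE 0.12, adjusted p = 0.00563) without overlap, and without knockdown replicate 1 it was -0.37 (adjusted p = 0.0538). Its substrate's transcript, Ireb2, named after its value was known, rose from 36.3 ± 6.62 to 55.6 ± 5.56 CPM (0.61, SE 0.13, adjusted p = 0.000296). Fbxo32, the muscle atrophy adaptor atrogin and a known FOXO target, was at 16.0, 16.98, 8.95 and 12.5 CPM in wild-type and at 8.29, 7.22 and 8.72 CPM in knockdown. Wild-type replicate 3 lay just above the knockdown libraries (-0.75, SE 0.22, adjusted p = 0.00927), and without knockdown replicate 2 the call was lost (-0.68, adjusted p = 0.0563).

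Fbxo30, a relative of the muscle adaptors, was at 11.99, 12.5, 11.96 and 12.55 CPM in wild-type and at 13.8, 18.7 and 18.6 CPM in knockdown (0.48, SE 0.18, adjusted p = 0.0427). The call was lost without any of the 4 wild-type libraries (adjusted p from 0.0521 to 0.0715) and without knockdown replicate 2 (0.188) or 3 (0.18). It was also lost with no low-count filter (0.0534), with the replicate block (0.0899), after GC and length correction (0.119) and at equal depth (0.051). Fbxl21 was at most 1.96 CPM in any library (-0.19, adjusted p = 0.924). Fbxo7, a partner of parkin in mitophagy (0.21, adjusted p = 0.315), Fbxl17, which checks BTB dimers (-0.22, adjusted p = 0.279), and Fbxo22 (0.001, adjusted p = 0.997) did not pass.

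In the family of adaptors that bind glycoproteins sent back from the endoplasmic reticulum, 1 of 3 tested genes was lower and 2 did not pass. Over all tested genes 15.3% were called lower. Fbxo6 was at 42.2, 48.3, 47.8 and 44.5 CPM in wild-type and at 29.5, 28.3 and 28.8 CPM in knockdown. It fell to 63.2% of wild-type, well clear of every wild-type library (log2 fold change -0.66, SE 0.12, adjusted p = 4.45e-05). Its neighbours on chromosome 4, Fbxo44 and Fbxo2, were nearly silent, with 3 counts in all for Fbxo44 and at most 1.54 CPM in any library for Fbxo2. The 3 genes lie in a row between 148145716 and 148166424, with Fbxo6 at 17.4 and Fbxo2 at 0.467 CPM per kb. A similar contrast held on chromosome 7, where Fbxo17 (8.47 to 13.6 CPM, not passed, 0.24, adjusted p = 0.425) lies beside Fbxo27, which had no count.

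Several called adaptors have fewer established substrates. Fbxo33 (chromosome 12 at 59200655 to 59219725, minus strand) was at 26.8, 25.4, 27.3 and 22.4 CPM in wild-type and at 47.7, 42.7 and 47.1 CPM in knockdown. The knockdown mean was 179.9% of wild-type and the groups stood far apart (log2 fold change 0.85, SE 0.12, adjusted p = 1.86e-06). Of the members whose call held under all alternatives, this was the rise with the largest fold change. Fbxl20, an adaptor studied at synapses and in autophagy, was at 32.9, 33.8, 34.6 and 30.7 CPM in wild-type and at 24.6, 21.0 and 20.4 CPM in knockdown. It fell without overlap (-0.58, SE 0.13, adjusted p = 0.00102).

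Fbxw4, known from limb development, was at 45.0, 45.3, 50.7 and 44.2 CPM in wild-type and at 38.2, 27.5 and 36.1 CPM in knockdown (-0.45, SE 0.12, adjusted p = 0.00542). Of its exonic bases, 21.41% are also exon of Gm17018. Without knockdown replicate 2 its fold change was -0.32 (adjusted p = 0.0846). Fbxo36 was lower at 6.70, 5.98, 4.18 and 7.22 CPM in wild-type cells against 3.46, 2.33 and 2.41 CPM in knockdown (-1.14, SE 0.33, adjusted p = 0.0085). Fbxw9 (0.55, adjusted p = 0.146) and Fbxl16 (-0.36, adjusted p = 0.0653) had groups that did not overlap and did not pass. The DNA helicase Fbxo18 (0.19, adjusted p = 0.46) and the CpG-binding Fbxl19 (0.14, adjusted p = 0.757) did not pass. Fbxo48 had the largest fold change of all members, 1.91 (SE 0.71, adjusted p = 0.0414), on 141 counts in all 7 libraries. It was at 0.763, 0.204, 0.915 and 0.296 CPM in wild-type and at 1.55, 2.44 and 2.21 CPM in knockdown, without overlap. Its call was lost without wild-type replicate 2 (adjusted p = 0.0833) or 4 (0.0814), without any knockdown library (0.0708 to 0.171), with the replicate block (0.148), with no low-count filter (0.0573) and at equal depth (0.0521).

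Of 16 Fbxl members with Skp2 2 were higher and 3 lower, of 30 Fbxo members with Ccnf 6 were higher and 4 lower, and of 9 Fbxw members with Btrc 1 was higher and 2 were lower. Called shares were 31.25%, 33.3% and 33.3%, beside 29.4% of all tested genes. The remaining members were silent or nearly so. In the Fbxw family, 13 genes lie together on chromosome 9 between 109139447 and 109790670. Of these, 12 had no count in any library and Fbxw27 had 7 counts, all in wild-type replicate 4. How reads that match several copies of a family were counted is not given, so a low count in such genes is uncertain. A count of 0 allows up to 3 counts, which is 0.161 to 0.2002 CPM in these libraries. Outside the cluster Fbxo16, Fbxo27, Fbxo39, Fbxo40 and Fbxo43 had no count.

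The matches in the full RefSeq windows of the genes shown above, of which parts were printed, were set beside the rest of the family. RefSeq windows, each 250 bases before to 50 bases after a start site, were at hand for 61 of the 83 members. The CHR letters were in a window of 4 of the 9 higher members with one (Skp2, Ccnf, Fbxo5 and Fbxo48). Of these, Fbxo48 passed the low-count filter only through the knockdown libraries and lost its call in 8 of 15 alternatives. Fbxo48 is also counted among the higher members with CCAAT. The CHR letters were in a window of 0 of 6 lower members and of 6 of 28 members that did not pass. Over all 32851 RefSeq windows 17.89% held them, beside 14.12% of the 85 windows of members. CCAAT was in a window of 5 of the 9 higher and 2 of the 6 lower members, beside 37.41% of all windows and 29.41% of the 85 windows of members. A member was counted if any of its windows held the letters, and some members have several windows. The percentages are over single windows, so shares of members are not directly comparable with them. Skp2 held the CHR letters at positions -63 and -55 in 1 of its 2 windows and no match in the other. The window with matches lies at 9155376 to 9155675 and the other at 9140405 to 9140704. Which Skp2 start site these cells use was not measured. Ccnf held the CHR letters at -130 and -14, and Fbxo5 at 4. The Ccnf match at -14 lies outside the printed stretch. Fbxo5 also had CCAAT letters at -93, -55 and -25. The E2F letters TTTCCCGC, TTTGGCGC, TTCCCGCC and TTGGCGCC, of which the third overlaps the first and the fourth the second, were in none of the 9 higher and none of the 6 lower members, beside 3.77% of all windows. Such matches describe letters in these windows only.

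**Figure D5:**
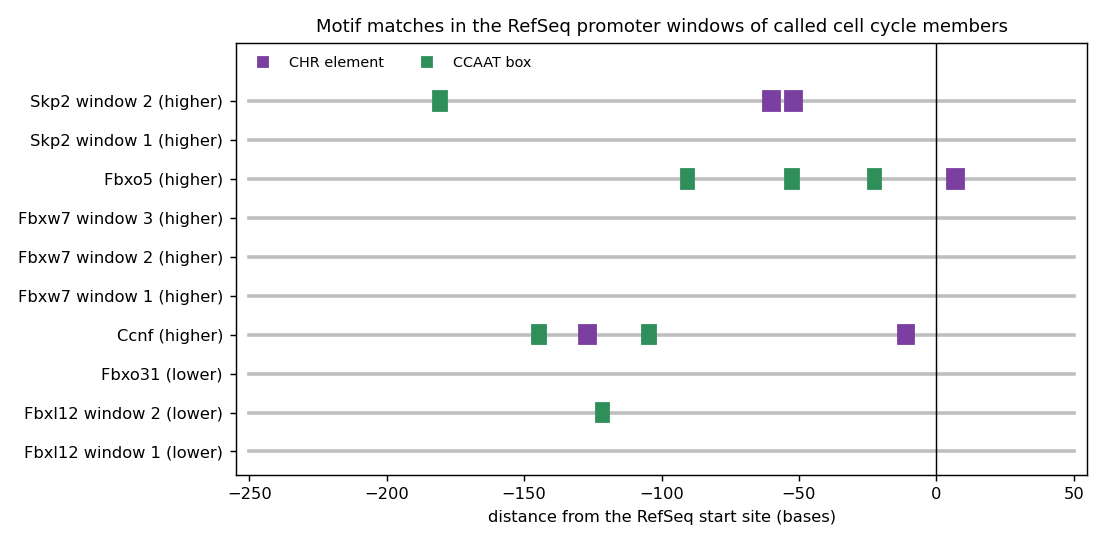
Positions of the CHR letters and of CCAAT, on either strand, in all 10 RefSeq promoter windows of the 6 called cell cycle members, as distance in bases from the start site. Ccnf, Fbxo5 and 1 of 2 Skp2 windows hold both motifs, 1 of 2 Fbxl12 windows holds CCAAT alone, and the windows of Fbxw7 and Fbxo31 hold neither.

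The members called higher and lower were alike in exon length, with medians of 4831 and 5090 bp, and in level, with medians of 6.03 and 6.61 CPM per kb. Their transcripts had a median GC content of 45.8% when higher and 49.7% when lower, beside 51.2% in those that did not pass. Of the 10 higher members 9 kept the call after GC and length correction, as did 8 of the 9 lower ones.

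The other genes of the ligase cycle were taken from lists written from textbook knowledge. Of 25 tested RING partners, NEDD8 enzymes, exchange factors and conjugating enzymes, 3 were higher, 1 was lower and 21 did not pass, with a median of 0.10. Of the 25, 16% were called, beside 29.4% of all tested genes. The RING partner Rbx1 did not pass (0.11, SE 0.080, adjusted p = 0.325). Cdc34, the conjugating enzyme that extends chains on SCF substrates, rose from 101.3 ± 9.04 to 133.2 ± 12.2 CPM (0.40, SE 0.083, adjusted p = 0.000362). Nedd8 also rose (0.23, SE 0.065, adjusted p = 0.00646), but whether its call held in the alternative fits was not examined. The conjugating enzyme Ube2g1 fell (-0.35, SE 0.11, adjusted p = 0.0115). The Ube2g1 call was lost when wild-type replicate 3 (0.0503) was left out, or knockdown replicate 2 (0.0594).

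In the COP9 signalosome, which strips NEDD8 from cullins, 1 of 9 genes was higher and 2 were lower, with a median of -0.04. Cops2 fell most, from 139.6 ± 8.54 to 75.02 ± 2.58 CPM (-0.90, SE 0.080, adjusted p = 1.27e-10). Cops5, the catalytic subunit, rose (0.29, adjusted p = 0.00539), a call lost without knockdown replicate 1 (0.088). Cops6 fell by less (-0.23, adjusted p = 0.0244). Cops6 lost its call without knockdown replicate 2 (0.117) or 3 (0.068), with the replicate block (0.0736) and after GC and length correction (0.0507). Of 6 other tested cullins, Cul7 was higher (0.32, adjusted p = 0.00881, and 0.0654 without knockdown replicate 2) and 5 did not pass. Called shares were 33.3% of the COP9 genes and 16.7% of these cullins, beside 29.4% of all tested genes.

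Of 3 tested F-box genes with other symbols, the histone demethylase Kdm2b (0.44, adjusted p = 0.029) and Lmo7 (0.40, adjusted p = 0.025) were higher and the related demethylase Kdm2a did not pass (0.14). Both calls were lost without single libraries. For Kdm2b the adjusted p was 0.128 without wild-type replicate 1, 0.124 without knockdown replicate 1 and 0.0885 without knockdown replicate 3. For Lmo7 it was 0.0715 without wild-type replicate 1, 0.0714 without wild-type replicate 3, 0.144 without knockdown replicate 2 and 0.0686 without knockdown replicate 3. Among transcripts of 31 tested SCF substrates 9 were higher and 5 were lower, with a median of 0.07. Over all tested genes 29.4% were called, beside 66.7% of those 3 F-box genes and 45.2% of this substrate list. Rrm2, Ccne1 and Ccne2 stand in both this list and that of the proliferation markers. The clock gene Per2 had the largest absolute change of the list, ahead of Rrm2 and Ccne2, from 7.81 ± 3.35 to 2.87 ± 0.27 CPM (-1.44, SE 0.32, adjusted p = 0.000739).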

How the data were processed

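The authors deposited raw read counts per gene symbol for 7 libraries. Per the submitters' processing notes the tools were Trimmomatic, STAR and HTSeq on mm10, without further detail. Annotation, strand setting and the handling of multiply mapped reads: not given in the sources used here. The table has 0 further sample columns and 0 rows that name no gene.

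Genes were kept by filterByExpr, libraries were scaled by TMM, and knockdown was compared with wild-type by the robust quasi-likelihood test of edgeR 4.0.16 in R 4.3.3, with p-values adjusted by Benjamini-Hochberg over all 11594 tested genes and a threshold of 0.05. Log2 fold changes are knockdown over wild-type, and the SE is the absolute fold change over the square root of F. Ratios of counts used a pseudocount of 0.5 and an exact permutation test. They rest on the same counts as the calls of their genes and are not separate evidence for those calls. The floors for a count of 0 cover counting error only, while each SE and SD includes the spread between libraries. Positions, exon lengths and GC content come from GENCODE M21 (GRCm38, also called mm10), with 99.2% of tested genes matched by symbol or RefSeq synonym. The 83 members all matched. The values of 1 tested member that did not pass are counted in the totals but not reported here.

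Genes named were those of the SCF core, Rbx1, Skp2, Ccnf, Btrc, Fbxw7, Fbxw11, Fbxo5 and Ddx54, and all called members. The 5 most abundant members per length and up to 3 called genes of each list with the largest change were also named. Other members were added for their roles, and Nedd8 was named outside this rule. Cdkn1b, Ireb2 and the remaining substrates of Fbxw7 were added for their roles after their values were known. Members and lists were chosen with earlier results of these data known. The alternatives were RLE and upper-quartile factors, 2 other low-count filters, DESeq2 1.42.0, voom with limma 3.58.1, a block for the replicate number, a loess correction for GC content and length, equal depth and leaving out each library. The test was checked on simulated counts over 11419 genes, where it recovered 44.8% of changes of 0.5, 78.8% of changes of 1 and 93.8% of changes of 2 log2 units, with 9 false calls among 11222 unchanged genes. Changed genes there numbered 67, 66 and 64 for these sizes, a far smaller share than the 29.4% called in the data. The recovery rates therefore need not hold for this comparison. No pair of libraries in a group agreed within sampling noise (chi-square per degree of freedom 8.31 to 16.3).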

Additional observations from a re-analysis of the deposited data

Results flagged for a closer look

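In the wild-type group of 4, 55 quantities were searched with Dixon's test for 1 library far from the remaining 3, and 4 met it, against about 2.75 by chance. Rbx1 was at 96.6 CPM in wild-type replicate 2 against 92.9 to 93.4 CPM in the others. Wild-type replicate 3 stood apart for Fbxw4, at 50.7 CPM against 44.2 to 45.3 CPM, for Krt19, at 3.66 CPM against 4.52 to 4.69 CPM, and for the log2 ratio of Cul1 to Skp1a, at 1.04 against 0.89 to 0.91. Without that library Fbxw4 and Krt19 kept their calls and the ratio still separated the groups.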

How the results depend on the processing

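Over the 16 alternative fits 7 to 10 members were called higher and 6 to 9 lower, and Ddx54 lay between -0.93 and -0.81. Of the 19 called members 11 kept the call in every alternative, 8 lost it in at least 1, in each case without at least 1 library, and 0 reversed. Same-numbered libraries did not deviate together (correlations -0.034, -0.027 and -0.006), so no pairing by number was seen. Whether same-numbered libraries were handled together is not in the labels, and such correlations cannot settle it. With the replicate block 8 members were higher and 8 lower. With the block over 3 pairs the ratios could not pass the test: Btrc to Fbxw11 was 0.63, Cul1 to Skp1a 0.27, Fbxw7 to Skp2 -0.25 (adjusted p = 0.333 each, exact permutation) and Ccnf to Fbxo5 turned to 0.0024. Leaving out each library gave 0.50 to 0.74, 0.22 to 0.32, -0.43 to -0.25 and -0.15 to 0.037, with adjusted p of 0.0889 to 0.178 for the first 3, where fewer splits exist. Ccnf to Fbxo5 turned positive without wild-type replicate 4 (0.0024) and without knockdown replicate 3 (0.037). Small values that did not pass also changed sign: Btrc after GC and length correction (-0.075) and without knockdown replicate 2 (-0.0052), and Skp1a without wild-type replicate 3 (-0.0048) and without knockdown replicate 2 (-0.0058) or 3 (-0.031). Notch1 turned to 0.0302 after that correction. Without 1 library each, Notch1 ranged from -0.20 to 0.094, Btrc ranged from -0.0052 to 0.112 and Skp1a from -0.031 to 0.0897. The cause was not tested. Members with few reads, such as Fbxo2 and Fbxl21, have SEs above 1 log2 unit, so changes there were not detectable at this depth.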
